A study of Homo sapiens with 12 samples.

Results

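The transcription factor p53 switches on a set of genes that slow the cell cycle, repair DNA, start cell death and feed back on p53 itself. The 33 p53 target genes described here were taken from the deposited count table by gene symbol, and all 33 were found among its 75249 usable rows. Enough counts for testing were present for 32 of them, out of 29114 genes tested. The exception was SPATA18, a gene linked to mitochondrial quality control, which had between 0 and 2 counts in every library. RNA was sequenced from A375 and LOX-IMVI BR, 2 established lines of human metastatic melanoma. Each line was given 6-thio-dG at 5 µM, BIBR1532 at 25 µM or a control, with 2 biological replicates per line and treatment, which makes 6 groups and 12 libraries. A nucleoside analogue, 6-thio-dG is added to telomere ends by telomerase and uncaps them, whereas BIBR1532 is a small molecule that inhibits telomerase. Neither the control's vehicle, nor how long the cells were exposed, nor what BR stands for is stated in the labels. Each line stands for 1 tumour, so the lines cannot speak for melanoma in general.

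Damaged DNA activates the kinases ATM and ATR, which stabilise p53, and p53 then binds response elements near its target genes. MDM2, itself a target, is the ubiquitin ligase that marks p53 for destruction, so the pathway limits itself. CDKN1A encodes p21, an inhibitor of cyclin-dependent kinases through which p53 halts the cell cycle. Many targets also answer to other regulators, such as the stress factor ATF4 for SESN2 and GDF15, so a rise of 1 target alone does not identify p53 activity.

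Because the members share p53 as a regulator, their promoters were searched for the p53 response element. RefSeq promoter windows (GRCh38.p14), reaching from 250 bases before to 50 bases after a transcription start, were matched by symbol for 27 of the 33 genes. PHLDA3, GADD45A, TP53INP1, TRIM22, RRM2B and TNFRSF10B had no entry. The p53 response element consensus, 2 half-sites of 10 letters with no spacer, was allowed 3 mismatches, none of them in the 4 core C and G positions. It reads the same on both strands. A match was present in 9 of the 27 genes (33.3%) and in 373 of all 27305 symbols with a window (1.37%). A match describes letters in a window and not a bound site, and a gene without one may hold an element elsewhere. A stretch that departs from any of the 4 core letters was not counted, so a window may hold further elements. The DDB2 match spans the transcription start, from base -5 to 15, and the GDF15 match lies after it, from base 29 to 48. The sequences below are those of the 9 genes with a match, which the other members with a window lacked. Each runs 5′ to 3′ along the gene's strand, with the 20 matched letters in capitals.
The 250 bases before the MDM2 inner start, chr12:68808767-68809016, plus strand, with 2 mismatches in the match:
MDM2: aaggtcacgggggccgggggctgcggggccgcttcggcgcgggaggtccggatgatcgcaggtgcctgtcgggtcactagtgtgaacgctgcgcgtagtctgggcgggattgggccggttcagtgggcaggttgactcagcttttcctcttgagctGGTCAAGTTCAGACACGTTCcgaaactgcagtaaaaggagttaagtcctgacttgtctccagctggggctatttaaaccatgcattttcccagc
The match and up to 5 bases on each side in the other 8 genes, at chr11:47214964-47214993 (DDB2, plus strand, 1 mismatch), chr10:88991304-88991333 (FAS, plus, 2 mismatches), chr15:88621301-88621330 (AEN, plus, 2 mismatches), chr6:109009013-109009042 (SESN1, minus, 3 mismatches), chr17:74872991-74873020 (FDXR, minus, 3 mismatches), chr19:18386181-18386207 (GDF15, plus, 3 mismatches), chr15:63157522-63157551 (RPS27L, minus, 3 mismatches) and chr18:59899806-59899835 (PMAIP1, plus, 3 mismatches):
DDB2: gctccAAGCTGGTTTGAACAAGCCCtgggc
FAS: ctcctGGACAAGCCCTGACAAGCCAagcca
AEN: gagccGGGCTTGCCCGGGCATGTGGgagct
SESN1: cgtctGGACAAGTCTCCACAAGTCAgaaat
FDXR: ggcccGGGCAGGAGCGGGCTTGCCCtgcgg
GDF15: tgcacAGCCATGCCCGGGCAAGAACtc
RPS27L: aggagGGCCTAGAGCAGACAAGCCCgcccc
PMAIP1: gtcggGAGCGTGTCCGGGCAGGTCGcgctc

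Library totals ran from 11813388 to 25822381 counts. Levels below are CPM, the counts scaled to a common library size, with TMM factors, and a gene was called when its Benjamini-Hochberg adjusted p in edgeR's quasi-likelihood test was under 0.05. That test estimates 1 spread from all 12 libraries. The biological coefficient of variation was 25.8% over both lines, 36.1% within A375 and 4.48% within LOX-IMVI BR, so the shared spread is smaller than that of the A375 replicates and larger than that of the LOX-IMVI BR replicates. Between replicates, the median chi-square per gene was 7.56 in A375 with 6-thio-dG, 10.6 in the A375 control and between 0.58 and 1.27 in the other 4 groups, where counting error alone gives 0.455. Of the 32 members, 8 differed more than 1 log2 unit between the replicates of A375 with 6-thio-dG and 9 between those of the A375 control, against 0 in the other groups. These gaps moved with the base composition of the transcript. Among the 16 members with at least 50% GC, replicate 1 was lower than replicate 2 in 0 with 6-thio-dG and in all 16 in the A375 control, and among the 16 with less GC it was lower in 14 and 8. Melanocyte lineage markers, which should mark melanoma, summed to 571 to 643 CPM in the A375 control with 5 of 8 under 1 CPM. In the LOX-IMVI BR control they summed to 10.1 to 10.3 CPM, with 6 of 8 under 1 CPM. Markers of leukocytes summed to at most 6.57 CPM and those of endothelium to at most 7.88 CPM in any library, and epithelial markers ran from 36.8 to 43.3 CPM in LOX-IMVI BR and from 291 to 612 CPM in A375. In whole-culture RNA, a change in the number of cells of a kind and a change in RNA per cell cannot be told apart.

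**Figure D1:**
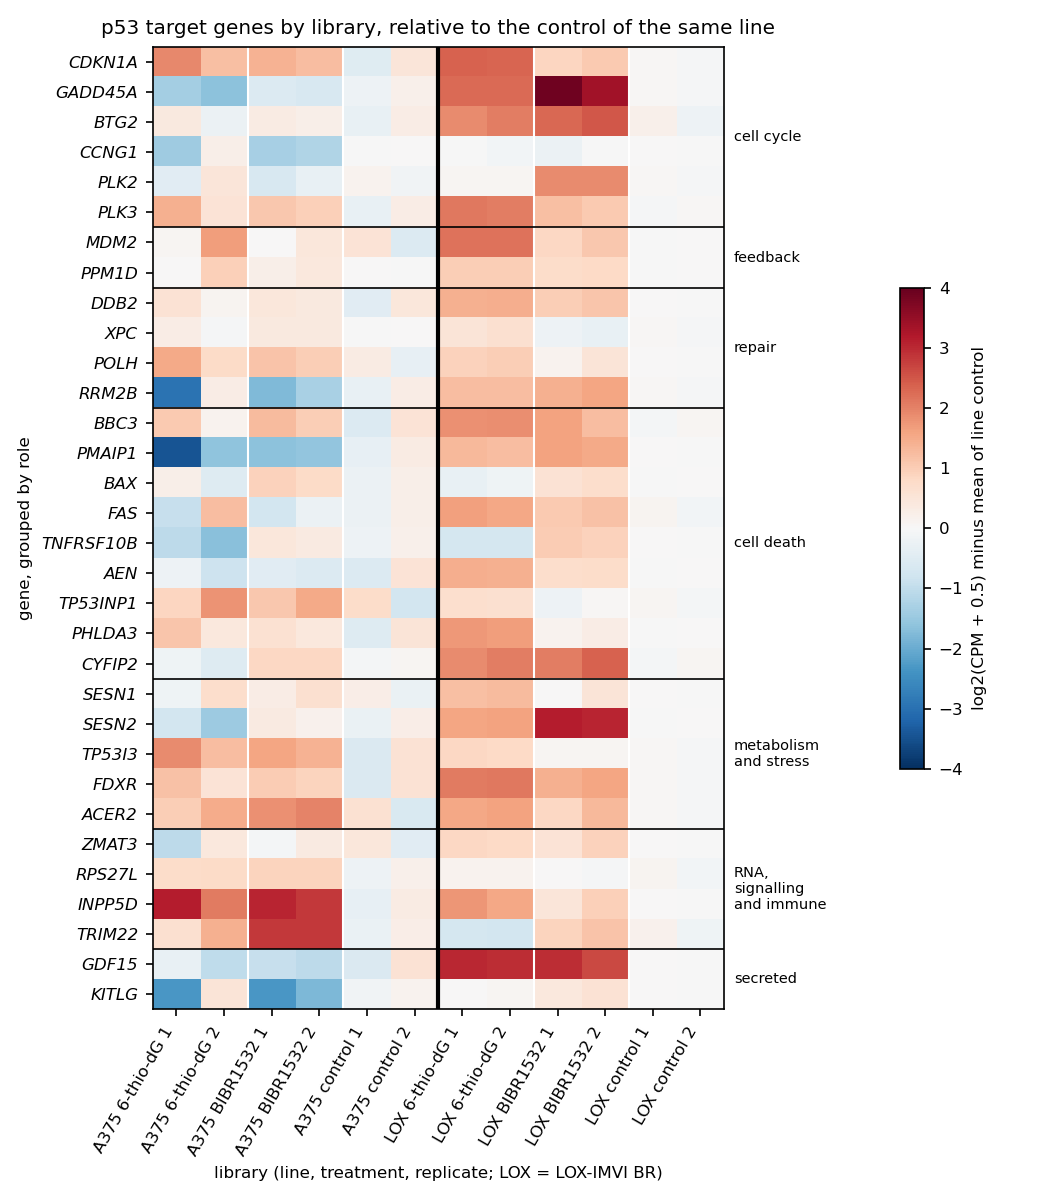
Level of 32 p53 target genes (rows, by role) in each of the 12 libraries (columns), as log2(CPM + 0.5) minus the mean of the control libraries of the same line. The 2 libraries of each LOX-IMVI BR group look alike, while RRM2B, PMAIP1, FAS, MDM2 and KITLG differ between the 2 A375 libraries with 6-thio-dG.

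In LOX-IMVI BR given 6-thio-dG, p53 target genes rose in each of the 7 roles into which they were sorted. Of 32 members, 18 were called higher (56.2%) and 0 lower than in the control, where 9.81% of all genes tested were called higher and 7.16% lower. Among the 14439 genes with a symbol, to which all members belong, the shares were 6.21% and 10.8%. Without adjustment, 22 were higher and 2 lower at p under 0.05. DESeq2 called 19 higher and 0 lower, beside 1934 and 2117 of 29114 genes. The median log2 fold change of the members was 1.36, against 0.05 over all genes and -0.13 over those with a symbol. Both 6-thio-dG libraries lay above both controls in 27 members and below them in 3, against 39.6% and 34.8% of all genes and 32.4% and 48.6% of those with a symbol. Called higher were 4 of 6 cell cycle genes, both feedback genes, 1 of 4 repair genes, 5 of 9 cell death genes, 4 of 5 metabolism and stress genes, INPP5D and GDF15. The share of all counts that fell in the members was 0.476% and 0.464% in the 6-thio-dG libraries and 0.155% and 0.154% in the control libraries.

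CDKN1A, the p21 gene, had 275 and 267 CPM in the LOX-IMVI BR 6-thio-dG libraries, against 54.5 and 51.3 CPM in the control libraries. All treated values lay well above both controls, and the fitted log2 fold change was 2.36 ± 0.35 (SE; adjusted p = 0.000495, edgeR's quasi-likelihood test, as for all adjusted p below unless named). GADD45A, a stress sensor that acts on the G2 checkpoint and DNA repair, had 204 and 204 CPM with 6-thio-dG, against 43.5 and 40.0 CPM in the control. The replicates agreed closely and the groups did not overlap, with a log2 fold change of 2.29 ± 0.30 (adjusted p = 0.000185). BTG2, an antiproliferative cofactor of mRNA decay, had 14.3 and 16.0 CPM with 6-thio-dG, against 4.16 and 2.95 CPM in the control (2.09 ± 0.34 log2, adjusted p = 0.000882). The kinase gene PLK3 had 40.4 and 38.7 CPM with 6-thio-dG, against 8.67 and 9.36 CPM in the control (2.13 ± 0.35 log2, adjusted p = 0.000892). For both genes the groups were apart. Its relative PLK2 averaged 93.8 CPM with 6-thio-dG and 88.8 CPM in the control and was not called; the 95% interval of its log2 fold change ran from -0.60 to 0.75. CCNG1, encoding cyclin G1, averaged 97.6 CPM with 6-thio-dG and 102 CPM in the control, with overlapping libraries.

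Both feedback genes were called higher. MDM2 had 482 and 474 CPM in the 6-thio-dG libraries, against 104 and 108 CPM in the control libraries. These groups lay far apart, and the log2 fold change was 2.17 ± 0.46 (adjusted p = 0.00479). Its adjusted p was 0.0614 without control replicate 1 and 0.0586 without control replicate 2, at nearly the same fold change (2.13 and 2.18 log2). PPM1D, the phosphatase WIP1 that removes activating phosphates from p53 and its kinases, averaged 69.2 CPM with 6-thio-dG and 34.9 CPM in the control (0.99 ± 0.32 log2, adjusted p = 0.046). Its call was lost with DESeq2 size factors, with a replicate block and without any 1 of the 4 libraries, where its adjusted p ran from 0.202 to 0.26.

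Among repair genes, DDB2, which recognises ultraviolet damage, averaged 187 CPM with 6-thio-dG and 68.1 CPM in the control and was called (1.46 ± 0.32 log2, adjusted p = 0.00644). The translesion polymerase POLH (150 against 77.2 CPM), the damage sensor XPC (114 against 76.6 CPM) and the ribonucleotide reductase subunit RRM2B (130 against 54.6 CPM) had higher means with 6-thio-dG than in the control and were not called, with adjusted p of 0.0567, 0.153 and 0.213. In each of these 3 genes both treated libraries nevertheless exceeded both controls.

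The cell death genes split. CYFIP2 had 41.4 and 46.1 CPM with 6-thio-dG, against 10.2 and 11.2 CPM in the control. The treated libraries were both higher than both controls, with a log2 fold change of 2.03 ± 0.29 (adjusted p = 0.000397). BBC3, which encodes the BH3-only protein PUMA, averaged 8.84 CPM with 6-thio-dG and 2.09 CPM in the control (2.08 ± 0.42 log2, adjusted p = 0.00393). PHLDA3, a repressor of AKT, averaged 336 and 103 CPM in the same order (1.71 ± 0.35 log2, adjusted p = 0.00421). The exonuclease gene AEN and the death receptor gene FAS were also called, at 1.44 ± 0.34 and 1.61 ± 0.50 log2. Both lost their calls without any 1 of the control or 6-thio-dG libraries, and FAS also with DESeq2 size factors. PMAIP1 (NOXA) averaged 46.5 CPM with 6-thio-dG and 19.2 CPM in the control and was not called (adjusted p = 0.0638). BAX, the pore-forming effector, averaged 104 and 123 CPM, and the TRAIL receptor gene TNFRSF10B averaged 166 and 270 CPM, with 6-thio-dG and in the control. In both, all treated libraries lay below the controls, but neither was called (adjusted p = 0.652 and 0.106).

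Of the metabolism and stress genes, FDXR (ferredoxin reductase, which passes electrons to mitochondrial P450 enzymes) averaged 245 CPM with 6-thio-dG and 57.0 CPM in the control (2.10 ± 0.37 log2, adjusted p = 0.00143). SESN2 and SESN1 encode sestrins, which restrain mTORC1. SESN2 averaged 115 CPM with 6-thio-dG and 37.8 CPM in the control, and SESN1 averaged 56.9 and 23.9 CPM in these groups. Both were called, at 1.60 ± 0.31 and 1.25 ± 0.35 log2, as was the ceramidase gene ACER2 at 1.65 ± 0.38 log2. The SESN1 call was lost without any 1 of the control or 6-thio-dG libraries. TP53I3, a quinone oxidoreductase, averaged 75.2 CPM with 6-thio-dG and 42.6 CPM in the control and was not called (adjusted p = 0.134). GDF15, a secreted stress cytokine of the TGF-β superfamily, had 355 and 338 CPM with 6-thio-dG, against 44.2 and 42.9 CPM in the control. Its log2 fold change of 2.99 ± 0.38 (adjusted p = 0.000158) came from well separated groups. INPP5D, the inositol phosphatase SHIP1, was called on few reads, 38 and 36 counts with 6-thio-dG against 2 and 2 in the control. The ratio of these scaled counts was 14.4, with a 95% counting interval of 5.38 to 54.1 that covers counting error only. ZMAT3, an RNA-binding regulator of splicing, averaged 144 CPM with 6-thio-dG and 82.1 CPM in the control, and TP53INP1, which acts in autophagy and cell death, averaged 69.9 and 43.8 CPM in these groups. Both had treated libraries above both controls and were not called. KITLG libraries overlapped, and TRIM22, at 2.98 CPM with 6-thio-dG and 5.25 CPM in the control, was lower in both treated libraries without a call (adjusted p = 0.125).

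For 6-thio-dG against the control in LOX-IMVI BR, fewer members were called when any 1 control or 6-thio-dG library was left out. ACER2, DDB2, PHLDA3, SESN2 and BBC3 were also among those that lost their calls in 1 or more of these fits. The members' median log2 fold change stayed between 1.32 and 1.36 in these fits. When the LOX-IMVI BR libraries were fitted alone, 25 members were called higher and 3 lower, beside 7621 and 7507 of 24087 genes. The fit to both lines called 2855 and 2084 of 29114 genes, so calls rose among all genes too. Genes of the fibroblast marker list moved with this comparison. The 5 genes summed to 23.2 to 25.2 CPM with 6-thio-dG, 1560 to 1640 CPM with BIBR1532 and 1820 to 1850 CPM in the control, with COL1A1 at a mean of 15.4 CPM with 6-thio-dG and 1626 CPM in the control. None of the 5 was at 0, and 1 was under 1 CPM in each group. Their part in the result was not tested.

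**Figure D2:**
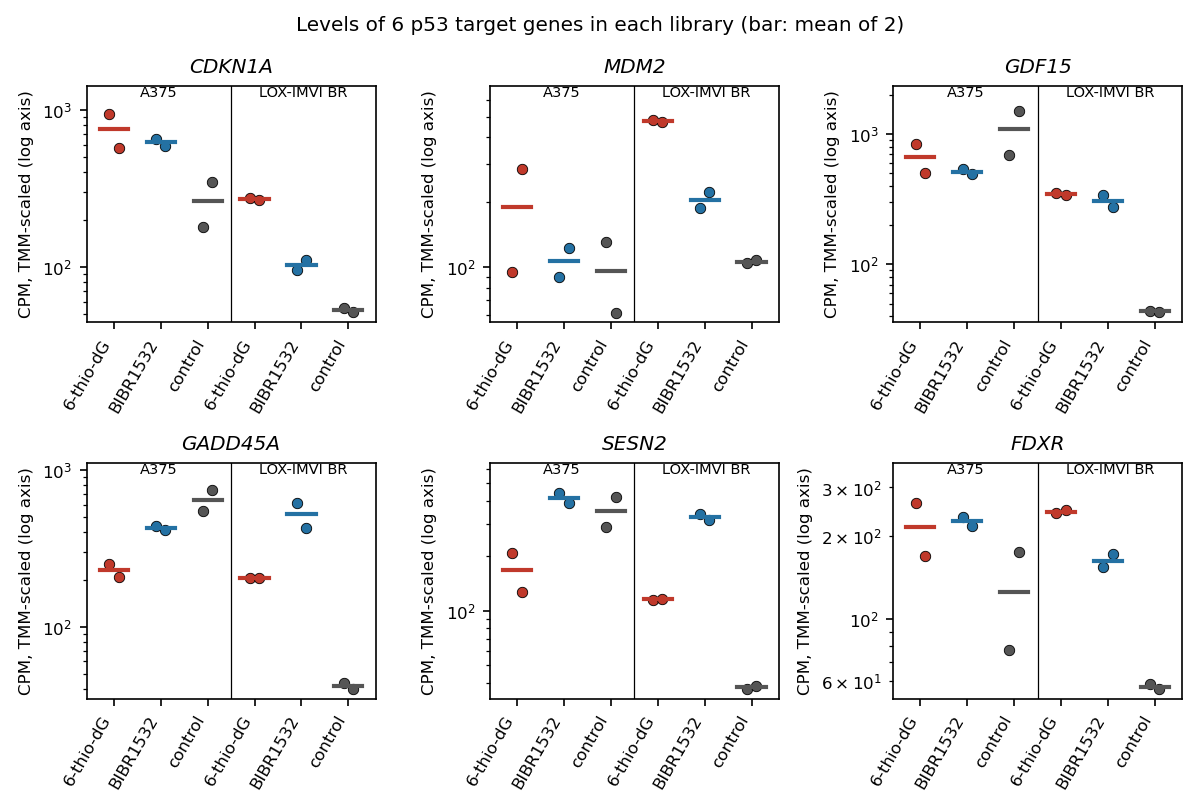
TMM-scaled CPM (log axis) of CDKN1A, MDM2, GDF15, GADD45A, SESN2 and FDXR in each library, as points, with bars at the mean of 2. In LOX-IMVI BR every treated library lies above both controls for all 6 genes, with MDM2 at 482 and 474 CPM under 6-thio-dG; in A375 the 2 libraries of a group can differ several-fold.

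BIBR1532 gave LOX-IMVI BR a shorter list of higher p53 target genes. Of 32 members, 8 were called higher (25.0%) and 0 lower than in the control, against 2.9% and 0.69% of all genes and 3.03% and 0.748% of those with a symbol. Without adjustment 22 were higher and 0 lower, and DESeq2 called 11 higher and 0 lower, beside 935 and 298 of 29114 genes. The median log2 fold change was 1.02 in the members, 0.04 over all genes and 0.09 over those with a symbol. Both BIBR1532 libraries lay above both controls in 27 members and below them in 1, against 35.1% and 27.8% of all genes and 42.3% and 30.5% of those with a symbol. The members took 0.386% and 0.376% of all counts with BIBR1532, against 0.155% and 0.154% in the control.

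GADD45A had 621 and 430 CPM in the LOX-IMVI BR libraries with BIBR1532, against 43.5 and 40.0 CPM in the control. The treated replicates were unequal but both far above the controls, and the log2 fold change was 3.65 ± 0.31 (adjusted p = 4.37e-05). SESN2 had 340 and 313 CPM with BIBR1532, against 37.1 and 38.6 CPM in the control (3.11 ± 0.33 log2, adjusted p = 0.000107). GDF15 had 339 and 273 CPM with BIBR1532, against 44.2 and 42.9 CPM in the control (2.81 ± 0.38 log2, adjusted p = 0.000585). In both genes the groups were widely separated. CYFIP2 had 45.4 and 56.8 CPM with BIBR1532, against 10.2 and 11.2 CPM in the control (2.25 ± 0.29 log2, adjusted p = 0.000544). BTG2 had 19.0 and 21.8 CPM with BIBR1532, against 4.16 and 2.95 CPM in the control (2.52 ± 0.34 log2, adjusted p = 0.000667). PLK2, a kinase of the same family as PLK3, had 332 and 330 CPM with BIBR1532, against 91.6 and 86.1 CPM in the control. All 3 genes had treated libraries above both controls, and the log2 fold change of PLK2 was 1.90 ± 0.33 (adjusted p = 0.00369). The PLK2 call was lost without control replicate 1 (adjusted p = 0.0863) or control replicate 2 (adjusted p = 0.107). FDXR and BBC3 completed the called members, at 1.52 ± 0.36 and 1.61 ± 0.42 log2. Both lost their calls with upper-quartile factors, with a replicate block and without any 1 of the 4 libraries, and BBC3 also with DESeq2 size factors.

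CDKN1A and MDM2 were not called in LOX-IMVI BR given BIBR1532. CDKN1A had 95.3 and 111 CPM with BIBR1532, against 54.5 and 51.3 CPM in the control, and MDM2 had 188 and 223 CPM, against 104 and 108 CPM. Both treated libraries exceeded both controls in each gene, at log2 fold changes of 0.96 ± 0.34 (adjusted p = 0.154) and 0.96 ± 0.44 (adjusted p = 0.311). TP53I3, TP53INP1, RPS27L, PHLDA3 and CCNG1 had log2 fold changes between -0.12 and 0.22. Leaving out either control replicate gave fewer higher calls. When the LOX-IMVI BR libraries were fitted alone, 26 members were called higher and 2 lower, beside 5494 and 5326 of 24087 genes. After correction for GC content 20 members were called higher, beside 1011 of 14032 genes.

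The 2 compounds were then set against each other in LOX-IMVI BR, at doses that differ 5 µM to 25 µM, so a difference belongs to the treatments as given. With 6-thio-dG, 3 members were called higher and 6 lower than with BIBR1532, against 9.89% and 10.7% of all genes and 5.53% and 14.8% of those with a symbol. PHLDA3 averaged 336 CPM with 6-thio-dG and 120 CPM with BIBR1532, and CDKN1A averaged 271 and 103 CPM, with log2 fold changes of 1.49 ± 0.35 (adjusted p = 0.00736) and 1.40 ± 0.34 (adjusted p = 0.00945). XPC was the other gene called higher with 6-thio-dG. GADD45A, SESN2, TRIM22, PLK2, TNFRSF10B and BAX were called lower with 6-thio-dG than with BIBR1532. For TNFRSF10B the means were 166 and 532 CPM (-1.68 ± 0.29 log2, adjusted p = 0.000975), and for PLK2 they were 93.8 and 331 CPM (-1.82 ± 0.33 log2, adjusted p = 0.0013). GDF15 did not differ detectably, with a log2 difference of 0.18 and a 95% interval from -0.57 to 0.93. Upper-quartile scaling changed the split to 9 higher and 5 lower, beside 4595 and 2017 of 29114 genes. The count of higher calls was 0 without either BIBR1532 replicate and 1 without either 6-thio-dG replicate.

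**Figure D3:**
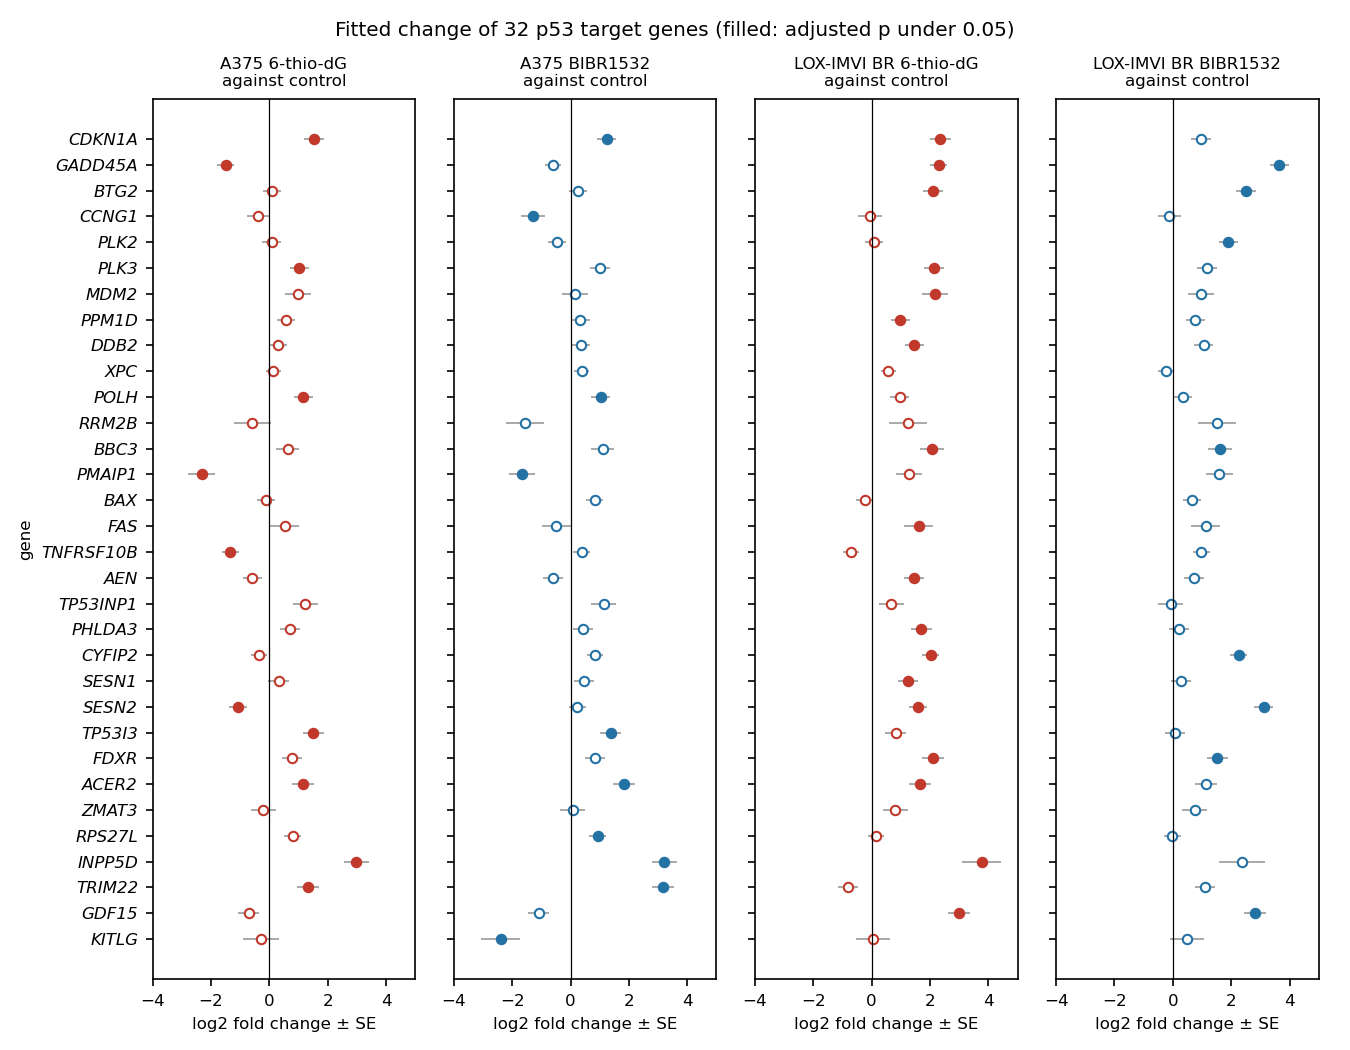
Fitted log2 fold change ± SE against the control of the same line for 32 p53 target genes, in 4 panels (A375 with 6-thio-dG, A375 with BIBR1532, LOX-IMVI BR with 6-thio-dG, LOX-IMVI BR with BIBR1532), filled where the adjusted p is under 0.05. The 18 filled points of LOX-IMVI BR with 6-thio-dG are all to the right of 0, while the A375 panel with 6-thio-dG has 7 to the right and 4 to the left.

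In A375 given 6-thio-dG, a larger share of the p53 target genes than of all genes was called higher, and the share called lower was near that of genes with a symbol. Of 32 members, 7 were called higher (21.9%) and 4 lower (12.5%) than in the control, against 9.86% and 8.21% of all genes and 7.81% and 12.9% of those with a symbol. The median log2 fold change was 0.31 in the members, 0.03 over all genes and -0.25 over those with a symbol. Both 6-thio-dG libraries lay above both controls in 9 members and below them in 5, against 25.8% and 20.5% of all genes and 17.5% and 28.6% of those with a symbol. The higher genes were CDKN1A, PLK3, POLH, TP53I3, ACER2, INPP5D and TRIM22, and the lower ones PMAIP1, GADD45A, TNFRSF10B and SESN2. Upper-quartile scaling, which raised the median of all genes to 0.43 log2, gave 12 higher and 2 lower, beside 5341 and 1337 of 29114 genes. Fitted alone, with their own larger spread, the A375 libraries gave 1 higher (INPP5D) and 1 lower (PMAIP1), beside 741 and 490 of 24026 genes. In that fit the share of members called higher was near that of all genes. Melanocyte lineage markers summed to 311 to 575 CPM with 6-thio-dG and 571 to 643 CPM in the control, and their part in the result was not tested. The lower count was 9 without 6-thio-dG replicate 2.

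CDKN1A had 944 and 572 CPM in the A375 libraries with 6-thio-dG, against 179 and 349 CPM in the control. Replicates differed within both groups, yet both treated libraries exceeded both controls, with a log2 fold change of 1.52 ± 0.34 (adjusted p = 0.00829). TP53I3 had 299 and 189 CPM with 6-thio-dG, against 53.6 and 119 CPM in the control (2.83-fold higher, SE 0.36 on the log2 scale, adjusted p = 0.0116). INPP5D had 22.1 and 10.4 CPM with 6-thio-dG, against 1.53 and 2.71 CPM in the control (2.99 ± 0.42 log2, adjusted p = 0.000536). Treated and control libraries did not overlap in either gene. PMAIP1 had 8.51 and 31.7 CPM with 6-thio-dG, against 76.7 and 124 CPM in the control. The treated libraries were both lower, although far from equal, with replicate 1 the lower one, as in 14 of the 16 members with under 50% GC, and the log2 fold change was -2.31 ± 0.46 (adjusted p = 0.00444). GADD45A had 251 and 206 CPM with 6-thio-dG, against 550 and 744 CPM in the control (-1.50 ± 0.29 log2, adjusted p = 0.00353). TNFRSF10B had 305 and 197 CPM with 6-thio-dG, against 551 and 723 CPM in the control (-1.34 ± 0.29 log2, adjusted p = 0.0063). Its treated libraries, like those of GADD45A, were both below both controls. Over 12 alternative settings, TNFRSF10B lost its call in 2, and CDKN1A, TP53I3 and GADD45A lost theirs in 1 each. MDM2 had 94.9 and 286 CPM with 6-thio-dG, against 130 and 61.2 CPM in the control. The groups overlapped and MDM2 was not called (0.99 ± 0.44 log2, adjusted p = 0.129). Its log2 fold change was -0.0285 without 6-thio-dG replicate 2 and 1.57 without 6-thio-dG replicate 1. GDF15 had 831 and 504 CPM with 6-thio-dG, against 686 and 1503 CPM in the control, which overlapped as well (-0.71 ± 0.35 log2, adjusted p = 0.171). RRM2B, with 36.4% GC, had 9.26 CPM in replicate 1 and 92.8 CPM in replicate 2 with 6-thio-dG, on either side of the control values of 61.6 and 91.8 CPM. After correction for GC content, 13 members were called higher and 6 lower with 6-thio-dG in A375, beside 2097 and 2849 of 14032 genes. MDM2 was then among the higher ones (1.57 ± 0.28 log2, adjusted p = 0.00237) and GDF15 among the lower ones (-0.92 ± 0.22 log2, adjusted p = 0.0105).

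With BIBR1532 in A375 the share of members called higher was again above that of all genes, and the share called lower was near that of genes with a symbol. Of 32 members, 7 were called higher (21.9%) and 3 lower (9.38%) than in the control, against 8.49% and 7.29% of all genes and 8.95% and 10.3% of those with a symbol. The median log2 fold change was 0.38 in the members, -0.04 over all genes and -0.15 over those with a symbol. Both BIBR1532 libraries lay above both controls in 17 members and below them in 7, against 29.7% and 27.3% of all genes and 27.7% and 33.8% of those with a symbol. The higher genes were CDKN1A, POLH, TP53I3, ACER2, INPP5D, TRIM22 and RPS27L. The control libraries are those of the 6-thio-dG comparison, so the results are not independent; POLH, for example, had log2 fold changes of 1.17 ± 0.33 with 6-thio-dG and 1.04 ± 0.33 with BIBR1532. The lower genes were PMAIP1, CCNG1 and KITLG, which encodes stem cell factor. TRIM22, an interferon-inducible ubiquitin ligase, had 15.4 and 15.5 CPM with BIBR1532, against 1.38 and 2.17 CPM in the control. The separation was wide, at 3.17 ± 0.38 log2 (adjusted p = 0.000105). INPP5D had 20.6 and 17.5 CPM with BIBR1532, against 1.53 and 2.71 CPM in the control (3.22 ± 0.42 log2, adjusted p = 0.00024). ACER2 had 23.3 and 26.2 CPM with BIBR1532, against 9.71 and 3.98 CPM in the control (1.82 ± 0.38 log2, adjusted p = 0.00672). In both genes the treated libraries exceeded the controls. TP53I3 had 237 and 210 CPM with BIBR1532, against 53.6 and 119 CPM in the control (1.38 ± 0.36 log2, adjusted p = 0.0203). CDKN1A had 651 and 591 CPM with BIBR1532, against 179 and 349 CPM in the control (1.24 ± 0.34 log2, adjusted p = 0.0256). PMAIP1 had 31.2 and 32.3 CPM with BIBR1532, against 76.7 and 124 CPM in the control (-1.66 ± 0.45 log2, adjusted p = 0.0246). None of these 3 genes had overlapping groups. Over 12 alternative settings, TRIM22 and INPP5D were called in all, while PMAIP1 lost its call in 6, CDKN1A in 5, TP53I3 in 3 and ACER2 in 2. After correction for GC content PMAIP1 changed by -0.49 ± 0.18 log2 and was not called (adjusted p = 0.0596).

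MDM2 had 89.7 and 123 CPM in A375 with BIBR1532, against 130 and 61.2 CPM in the control, and was not called (0.15 ± 0.44 log2, adjusted p = 0.848). Its direction turned to -0.29 without control replicate 2 and to -0.0777 without BIBR1532 replicate 2. GDF15 had 539 and 491 CPM with BIBR1532, against 686 and 1503 CPM in the control. Both treated libraries were lower, just short of a call (-1.09 ± 0.36 log2, adjusted p = 0.0501), and GDF15 was called lower after correction for GC content (adjusted p = 0.00386). Counts of calls moved with single libraries. Without control replicate 2 there were 12 higher and 0 lower, without BIBR1532 replicate 1 there were 3 and 0, and without BIBR1532 replicate 2 there were 2 and 0. Upper-quartile scaling gave 12 higher and 2 lower, beside 3334 and 1684 of 29114 genes. After correction for GC content 14 were higher and 4 lower, beside 2342 and 2176 of 14032 genes. The lower members were GADD45A, KITLG, AEN and GDF15, without PMAIP1 and CCNG1. Fitted alone, the A375 libraries left TRIM22 and INPP5D as the 2 higher calls, with 0 lower, beside 790 and 134 of 24026 genes. Melanocyte lineage markers summed to 1300 to 1460 CPM with BIBR1532 and 571 to 643 CPM in the control, with 3 of the 6 tested called higher and 1 lower, and their part in the result was not tested.

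At their differing doses in A375, 6-thio-dG gave 1 member called higher (KITLG) and 6 lower than BIBR1532, against 7.26% and 8.76% of all genes and 5.13% and 11.4% of those with a symbol. TNFRSF10B averaged 251 CPM with 6-thio-dG and 830 CPM with BIBR1532 (-1.72 ± 0.29 log2, adjusted p = 0.00113). TRIM22, SESN2, CYFIP2, GADD45A and BAX were the other genes called lower with 6-thio-dG. CDKN1A did not differ detectably, and the 95% interval of its log2 difference ran from -0.43 to 1.00. The split was 1 higher and 3 lower with upper-quartile scaling, 0 and 6 with DESeq2 size factors, and 0 and 4 with a replicate block. In that order 2953 and 1958, 1722 and 2989, and 1543 and 2129 of 29114 genes were called. Both counts also moved when single libraries were left out. The KITLG libraries with 6-thio-dG had 1.00 and 10.5 CPM, against 1.03 and 1.69 CPM with BIBR1532, so these groups overlapped.

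Whether the lines answered differently was tested as an interaction, the log2 fold change in LOX-IMVI BR minus that in A375. For 6-thio-dG, 7 members had a higher change in LOX-IMVI BR and 1 a lower one, against 2.48% and 3.06% of all genes and 3.1% and 4.16% of those with a symbol. The 7 were GADD45A, GDF15, PMAIP1, SESN2, CYFIP2, AEN and BTG2, and the other was TRIM22. GADD45A changed by 2.29 log2 in LOX-IMVI BR and -1.50 log2 in A375, a difference of 3.79 ± 0.41 (adjusted p = 0.000142). GDF15 changed by 2.99 log2 in LOX-IMVI BR and -0.71 log2 in A375, a difference of 3.70 ± 0.51 (adjusted p = 0.000915). For BIBR1532, 6 members had a higher change in LOX-IMVI BR and 1 a lower one, against 2.09% and 1.54% of all genes and 2.76% and 1.97% of those with a symbol. These were GADD45A, GDF15, PMAIP1, SESN2, PLK2 and BTG2, and again TRIM22 in the opposite direction. CDKN1A showed no detectable difference between the lines for either compound. Its interaction was 0.84 log2 with 6-thio-dG (95% interval -0.17 to 1.85) and -0.27 log2 with BIBR1532 (-1.28 to 0.74). The higher count for 6-thio-dG was 5 with upper-quartile factors and 5 with a replicate block, beside 565 and 492 of 29114 genes called higher. AEN and BTG2 were not called in either. The count also moved in both directions when single libraries were left out. The call of TRIM22 with 6-thio-dG was lost without A375 control replicate 1 or any 1 of the LOX-IMVI BR control or 6-thio-dG replicates. The higher count for BIBR1532 was 3 without any 1 of the A375 BIBR1532 replicates, the LOX-IMVI BR BIBR1532 replicates or the LOX-IMVI BR control replicates, and the call of TRIM22 was lost without each of these. Both lower counts were 2 without A375 control replicate 2.

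**Figure D4:**
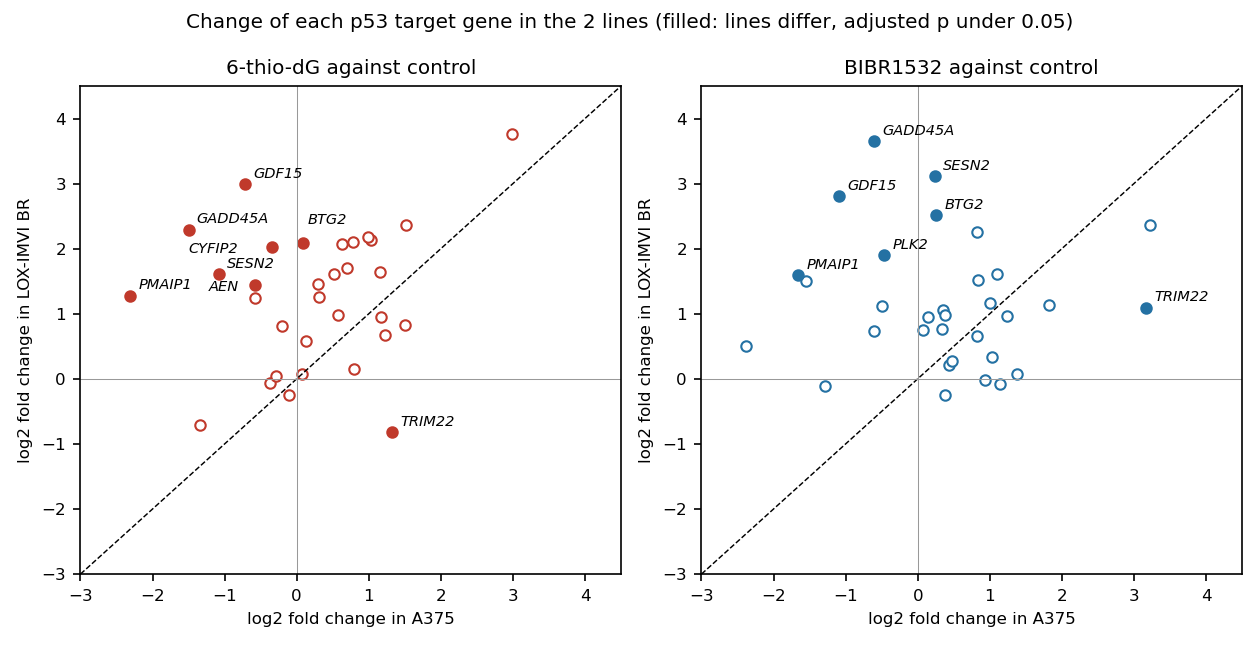
Log2 fold change against control in LOX-IMVI BR (vertical) and A375 (horizontal) for each of 32 p53 target genes, with 6-thio-dG in the left panel and BIBR1532 in the right; filled points differ between the lines at an adjusted p under 0.05 and the dashed line marks equal change. GADD45A, GDF15 and PMAIP1 stand above the line to the left of 0 in both panels, and TRIM22 stands below the line.

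The lines already differed in their controls. In the LOX-IMVI BR control, 17 of 32 members were called lower (53.1%) and 3 higher (9.38%) than in the A375 control, against 28.8% and 21.1% of all genes and 32.3% and 22.5% of those with a symbol. The median log2 fold change was -1.08 in the members, -0.12 over all genes and -0.17 over those with a symbol. Both LOX-IMVI BR libraries lay below both A375 libraries in 18 members and above them in 9, against 38.7% and 36.8% of all genes and 43.2% and 37.7% of those with a symbol. BTG2 had 4.16 and 2.95 CPM in the LOX-IMVI BR control, against 161 and 241 CPM in the A375 control (-5.82 ± 0.39 log2, adjusted p = 2.91e-08). GDF15 had 44.2 and 42.9 CPM in the LOX-IMVI BR control, against 686 and 1503 CPM in the A375 control (-4.65 ± 0.41 log2, adjusted p = 3.48e-07). GADD45A had 43.5 and 40.0 CPM in the LOX-IMVI BR control, against 550 and 744 CPM in the A375 control (-3.95 ± 0.32 log2, adjusted p = 1.48e-07). In all 3 genes the lines were far apart. SESN2, AEN, PLK3, CYFIP2, PMAIP1 and CDKN1A were lower by 2.32 to 3.22 log2 units. KITLG, TRIM22 and CCNG1 were higher in LOX-IMVI BR, KITLG at 32.9 CPM in its control and 7.15 CPM in the A375 control. MDM2 averaged 106 and 95.7 CPM in the same order and was not called, with a 95% interval of its log2 difference from -0.79 to 1.08. The count of 3 higher members was 1 without A375 control replicate 2.

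**Figure D5:**
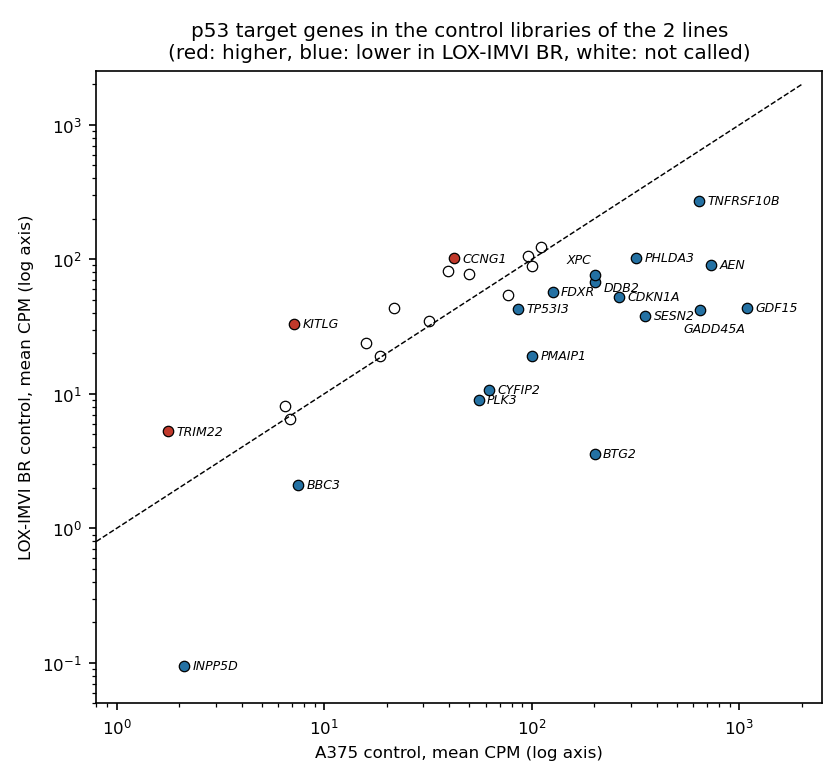
Mean CPM of 32 p53 target genes in the LOX-IMVI BR control (vertical, log axis) and the A375 control (horizontal, log axis), 2 libraries each; red points are called higher and blue points lower in LOX-IMVI BR, white points are not called, and the dashed line marks equal levels. The 17 blue points include BTG2 at 3.56 CPM in LOX-IMVI BR and 201 CPM in A375.

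The 9 members with a response element match near their start did not move as a block, and they were not the more often called set in each comparison. In LOX-IMVI BR with 6-thio-dG, 7 of the 9 were called higher, the exceptions being PMAIP1 and RPS27L, beside 9 of the 17 with a window and no match. With BIBR1532 in the same line, 2 of the 9 were called higher, FDXR and GDF15, beside 5 of the 17. In A375, 0 of the 9 were called higher with 6-thio-dG, where PMAIP1 was called lower, beside 6 of the 17, and with BIBR1532 1 of the 9 was called higher, beside 5 of the 17. RPS27L, a ribosomal protein paralogue, had 8.97 and 8.92 CPM in LOX-IMVI BR with 6-thio-dG, against 8.72 and 7.45 CPM in the control.

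The genes that act upstream of p53 were read as a list of 21, of which 20 were tested. With edgeR, 0 were called higher in any compound against its control. The numbers called lower were 4 in A375 with 6-thio-dG, 4 in A375 with BIBR1532, 3 in LOX-IMVI BR with 6-thio-dG and 0 in LOX-IMVI BR with BIBR1532. In the same order, 8.21%, 7.29%, 7.16% and 0.69% of all genes were called lower. Among genes with a symbol these shares were 12.9%, 10.3%, 10.8% and 0.748%. The shares of all genes called higher were 9.86%, 8.49%, 9.81% and 2.9%. Within the list, an unadjusted p under 0.05 added 2 higher and 0 lower genes in LOX-IMVI BR with BIBR1532, and 0 higher elsewhere. DESeq2 called 0 of the list higher in all 4 comparisons and 0 lower in the last. CDKN2A, whose ARF product inhibits MDM2, averaged 5.70 CPM with 6-thio-dG and 7.86 CPM with BIBR1532 in A375, against 24.0 CPM in the control, and both were called lower (adjusted p = 0.00829 and 0.0268). In LOX-IMVI BR it had 3 counts in all with 6-thio-dG and 0 with BIBR1532 and in the control.

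Of 38 listed p53 targets outside the 33, 35 were tested. Those called higher and lower numbered 5 and 3 in A375 with 6-thio-dG, 7 and 2 in A375 with BIBR1532, 4 and 2 in LOX-IMVI BR with 6-thio-dG, and 7 and 0 in LOX-IMVI BR with BIBR1532, the last with 1 lower at an unadjusted p under 0.05 and 0 by DESeq2. The shares of all genes called higher and lower in these comparisons were 9.86% and 8.21%, 8.49% and 7.29%, 9.81% and 7.16%, and 2.9% and 0.69%. The list's median log2 fold changes were 0.06, 0.37, 0.40 and 0.38 in that order, beside all-gene medians of 0.03, -0.04, 0.05 and 0.04. FUCA1, a lysosomal fucosidase, was called higher in all 4 comparisons. ATF3, a stress-induced transcription factor, averaged 11.6 CPM with 6-thio-dG and 23.1 CPM with BIBR1532 in LOX-IMVI BR, against 2.40 CPM in the control, and both were called (2.28 and 3.27 log2). LIF, a secreted cytokine, went opposite ways. It averaged 12.6 CPM with 6-thio-dG and 509 CPM with BIBR1532 in LOX-IMVI BR, against 82.5 CPM in the control (adjusted p = 0.000126 and 0.000413).

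Cell cycle genes that p21 is known to keep down through the DREAM and RB complexes were counted next. Of 12 such genes, 11 were called lower and 0 higher in LOX-IMVI BR with 6-thio-dG, and 9 lower and 0 higher in A375. Unadjusted p and DESeq2 likewise gave 0 higher in both lines. Of all genes, 7.16% were called lower in LOX-IMVI BR and 8.21% in A375 with 6-thio-dG. Among genes with a symbol these shares were 10.8% and 12.9%. With BIBR1532 there were 1 higher and 1 lower of the 12 in A375, and 0 and 0 in LOX-IMVI BR. In LOX-IMVI BR with BIBR1532, 2 were higher and 0 lower at an unadjusted p under 0.05, and DESeq2 called 1 higher and 0 lower. Of all genes, 8.49% were called higher and 7.29% lower with BIBR1532 in A375, and 2.9% and 0.69% in LOX-IMVI BR. Median log2 fold changes of the 12 genes were -2.39 in LOX-IMVI BR and -1.56 in A375 with 6-thio-dG, and 0.49 and -0.14 with BIBR1532. PLK1, a mitotic kinase, had 15.2 and 16.7 CPM in LOX-IMVI BR with 6-thio-dG and 298 and 283 CPM with BIBR1532, against 238 and 238 CPM in the control. The 6-thio-dG libraries, and not those with BIBR1532, lay below the controls (-3.90 ± 0.31 log2, adjusted p = 4.6e-06). CCNB1, encoding cyclin B1, averaged 19.3 CPM in A375 with 6-thio-dG, against 64.0 CPM in the control (-1.73 ± 0.30 log2, adjusted p = 0.00205).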

How the data were processed

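Total RNA was isolated with TRIzol and sequenced from TruSeq libraries that do not keep the strand, per the labels' protocols, so overlapping genes on opposite strands and near-identical copies share reads. The authors deposited raw counts, as whole numbers without normalization, for genes in rows. The submitters' processing notes name STAR, Picard, GATK, featureCounts 1.5.1, hg19 and GRCh37. Of 75253 rows, 54072 were NONCODE genes and 21177 had symbols. Another 4 rows, whose names had been turned into dates (0.000913% of a library or less), were left out.

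Counts were tested with edgeR 4.0.16 (R 4.3.3; limma 3.58.1): filterByExpr, TMM, robust quasi-likelihood, 1 mean per line and treatment over 12 libraries (6 residual degrees of freedom), and Benjamini-Hochberg adjustment over 29114 genes (14439 with symbols). There were 9 comparisons. Replicates are biological per the labels, which do not say that they were separate cultures, so p-values measure only the spread between these samples, which may be technical. CPM are TMM-scaled. GC content came from GENCODE 29. Promoters are RefSeq, GRCh38.p14, used by symbol only. Per-library values are given for CDKN1A, MDM2, GDF15 and up to 6 called members of smallest adjusted p in each compound comparison. Some results are not reported here. Members and lists were chosen with earlier results of these data known. The fit was tested on counts simulated with the spread shared by both lines. For 6-thio-dG it called 2% of genes changed by 1 log2 unit in A375 and 5% in LOX-IMVI BR. At 2 log2 units it called 73% and 72%. False calls numbered 11 and 4 among 24992 genes. Neither line has the simulated spread, with a biological coefficient of variation of 36.1% in A375 and 4.48% in LOX-IMVI BR. These numbers therefore cannot give the rate of false calls in A375 or of missed changes in LOX-IMVI BR. Alternatives were DESeq2 1.42.0 and its size factors, upper-quartile factors, no low-count filter, a replicate block, GC correction, each line alone and leaving out each library.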

Additional observations from a re-analysis of the deposited data

Results flagged for a closer look

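Members whose response differed between the lines, by a called interaction term, were looked at again. With 6-thio-dG the log2 fold change in LOX-IMVI BR minus that in A375 was 3.79 for GADD45A, 3.70 for GDF15, 3.59 for PMAIP1, 2.68 for SESN2, 2.38 for CYFIP2, 2.02 for AEN, 2.00 for BTG2 and -2.14 for TRIM22. With BIBR1532 it was 4.26 for GADD45A, 3.90 for GDF15, 3.25 for PMAIP1, 2.87 for SESN2, 2.36 for PLK2, 2.26 for BTG2 and -2.07 for TRIM22. Of these genes GADD45A, GDF15, PMAIP1, SESN2, CYFIP2, AEN and BTG2 were lower, and TRIM22 was higher, in the LOX-IMVI BR control than in the A375 control, and that control pair enters every interaction. PLK2 averaged 88.8 CPM in the LOX-IMVI BR control and 100.5 CPM in the A375 control and was not called between them.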

How the results depend on the processing

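Counts of called members are given as higher and lower. Upper-quartile factors gave 12 and 2 in A375 with 6-thio-dG and 12 higher in A375 with BIBR1532. They gave 3 lower for 6-thio-dG against BIBR1532 in A375 and 9 higher for that contrast in LOX-IMVI BR. In that order they called 5341 and 1337, 3334, 1958 and 4595 of 29114 genes. These factors moved the median log2 fold change of all genes to 0.43 in A375 with 6-thio-dG, 0.18 in A375 with BIBR1532, 0.28 in LOX-IMVI BR with 6-thio-dG, -0.074 and -0.20 in the 6-thio-dG and BIBR1532 interactions, and 0.29 and 0.34 for the compounds in A375 and LOX-IMVI BR; the members' medians there were 0.71, 0.62, 1.59, 0.80, 0.27, 0.15 and 0.66. DESeq2 size factors, and also the replicate block, gave 0 higher for 6-thio-dG against BIBR1532 in A375, beside 1722 and 1543 of 29114 genes. With no low-count filter there were 11 and 5 in A375 with BIBR1532 and 14 higher in LOX-IMVI BR with BIBR1532. There were 11 higher in the 6-thio-dG interaction and 2 lower in the BIBR1532 interaction. Between controls there were 5 higher, and for the compounds in LOX-IMVI BR 7 higher. In that order 3026 and 3275, 1142, 1681, 908, 6781 and 3544 of 58258 genes were called. GC correction gave 13 higher in A375 with 6-thio-dG, 14 in A375 with BIBR1532, 20 in LOX-IMVI BR with BIBR1532, 15 in the 6-thio-dG interaction, 10 and 4 in the BIBR1532 interaction, 5 higher between controls, 4 higher for the compounds in A375 and 15 in LOX-IMVI BR, and 1 lower in LOX-IMVI BR with 6-thio-dG. In that order it called 2097, 2342, 1011, 1437, 1174 and 1119, 4198, 1672, 1959 and 2367 of 14032 genes. GC correction with the replicate block gave 13, 15, 18, 15, 10 and 4 for the first 5 of these comparisons. It gave 3 higher for the compounds in A375, 15 in LOX-IMVI BR and the same 1 lower count. In that order it called 1922, 2282, 833, 1305, 1099 and 1084, 1428, 1800 and 2227 of 14032 genes. Each line alone gave 1 and 1 in A375 with 6-thio-dG, 2 and 0 in A375 with BIBR1532, 3 lower in LOX-IMVI BR with 6-thio-dG, 26 and 2 in LOX-IMVI BR with BIBR1532, 0 and 1 for the compounds in A375, and 17 and 10 in LOX-IMVI BR. These single-line fits tested 24026 genes in A375 and 24087 in LOX-IMVI BR. In the same order they called 741 and 490, 790 and 134, 7507 lower, 5494 and 5326, 618 and 986, and 8140 and 7973 genes. The cause of the shifts in member counts was not tested.

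Leaving out 1 library at a time, counts ranged over 6 to 10 higher and 3 to 9 lower in A375 with 6-thio-dG, 2 to 12 and 0 to 4 in A375 with BIBR1532, 8 to 14 higher in LOX-IMVI BR with 6-thio-dG, 5 to 6 higher in LOX-IMVI BR with BIBR1532, 5 to 15 and 0 to 2 in the 6-thio-dG interaction, 3 to 9 and 0 to 2 in the BIBR1532 interaction, 1 to 4 and 15 to 17 between controls, 0 to 7 and 2 to 7 for the compounds in A375, and 0 to 1 and 4 to 5 in LOX-IMVI BR. A lone library was assumed to vary like the other groups. The log2 fold change of MDM2 in A375 ranged from -0.0285 (without 6-thio-dG replicate 2) to 1.62 with 6-thio-dG, and from -0.291 (without control replicate 2) to 0.80 with BIBR1532, at -0.0777 without BIBR1532 replicate 2.

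Same-numbered A375 replicates deviated with correlations of -0.101 and -0.205 against the control, and LOX-IMVI BR ones with 0.000503 to 0.0353. On these values the numbers were not taken to pair samples. Between compounds in A375 the correlation was 0.492, a shared deviation that the unpaired comparison of the compounds leaves out. With a replicate block that comparison gave 0 higher and 4 lower members. A replicate block gave 5 and 3 members in A375 with 6-thio-dG and 17 and 0 in LOX-IMVI BR with 6-thio-dG. Of 29114 genes it called 2361 and 2155 in the former and 2339 and 1704 in the latter. A crossed replicate block, chosen after seeing the data, gave 11 higher in A375 with 6-thio-dG and 13 in A375 with BIBR1532. It gave 6 higher between controls, 7 for the compounds in LOX-IMVI BR and 0 for the compounds in A375. Lower counts were 1 in LOX-IMVI BR with 6-thio-dG and 2 in the BIBR1532 interaction. In that order it called 3043, 2618, 6254, 3080, 2150, 2554 and 616 of 29114 genes.

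With 2 libraries a group, an uncalled member is not shown to be unchanged. The smallest library held 11813388 counts, and INPP5D and SPATA18 are limited by depth in LOX-IMVI BR.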
